A study of Saccharomyces cerevisiae with 12 samples.

Results

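The genes examined here are 9 members of the enzyme families that carry yeast sugar metabolism from triose phosphate to ethanol. They were taken by name from the 7130 features listed by the authors and are 2 TDH genes (*TDH1*, *TDH2*), 3 PDC genes (*PDC1*, *PDC5*, *PDC6*) and 4 ADH genes (*ADH1*, *ADH2*, *ADH3*, *ADH5*). The study profiled RNA from 2 haploid *S. cerevisiae* strains grown in rich glucose medium. One is the wild type BY4742 (MAT{alpha} his3D1 leu2D0 lys2D0 ura3D0), and the other is tetO-*GLN4* (McFY2), which has the same mutations plus a KanMX4-tTA-tetO7 cassette in place of the promoter of *GLN4*, the glutaminyl tRNA synthetase gene. Each strain was grown with 0 or 1 µg/ml doxycycline, which shuts off the tetO promoter, in 3 cultures per condition, giving 12 samples in 4 conditions. The labels name a single tetO-*GLN4* strain, so strain and clone cannot be told apart. The study's methods harvested all cultures at mid-log phase, with the inocula adapted to the growth rate.

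The TDH genes encode glyceraldehyde-3-phosphate dehydrogenase, the glycolytic enzyme that reduces NAD+ while oxidizing triose phosphate. The PDC genes encode pyruvate decarboxylase, which splits pyruvate into acetaldehyde and CO2, and the ADH genes encode alcohol dehydrogenases, which convert acetaldehyde and ethanol into each other and so return NADH to NAD+. Yeast growing on glucose ferments most of it along this route. Each step has several paralogs, of which usually a single one is highly expressed on glucose.

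The level of a gene is given as FPKM (fragments per kilobase of gene, scaled to the mapped fragments of the library), the authors' value pooled over the 3 cultures of a condition, with the 95% confidence interval they deposited. Neither values per culture nor read counts were analysed, so sequencing depth is unknown, no difference could be checked culture by culture, and no p-value is given. A gene is described as having risen or fallen where the confidence intervals of the conditions with and without doxycycline lay apart. The log2 ratio (with over without doxycycline) is given with an interval of 2 SDs, computed from the deposited confidence intervals. The strains were normalized in separate tables, so levels are compared only within a strain. In the 4 conditions the SD of an FPKM had a median between 10.6% and 10.9% of the value itself. An FPKM of 0 with the status HIDATA marks a locus with too many fragments for an estimate and was treated as missing. *PDC1* had this status in the untreated wild type and in tetO-*GLN4* with doxycycline, so 8 of the 9 genes have a value in all 4 conditions and *PDC1* has no ratio in either strain. *TDH3*, the most expressed TDH paralog in glucose-grown yeast as generally known, had it in all 4 conditions and could not be included.

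The targeted gene and the identity of the cells were checked first. *GLN4*, which overlaps 1 other listed feature, had 199 FPKM in both wild-type conditions and 30.5 in tetO-*GLN4* with doxycycline, and was not estimated in untreated tetO-*GLN4*. A fall of *GLN4* within tetO-*GLN4* could therefore not be shown from these values, because levels are not compared between the strains. *LEU2*, *LYS2* and *URA3* were at 0 in all conditions. *HIS3*, which overlaps 2 other listed features, had 410 and 413 FPKM in the wild type, without and with doxycycline. In tetO-*GLN4* it had 332 FPKM without and 963 with doxycycline. Of 4 alpha-cell markers, 4 fell in tetO-*GLN4* with doxycycline, their summed level going from 18668 to 297 FPKM (18332 and 17035 in the wild type). Of 7 a-cell markers, 3 rose, the sum going from 158 to 281 FPKM, and no marker of either list was at 0 in any condition. Over all features with a ratio in tetO-*GLN4*, 16.1% fell and 15.0% rose. In the wild type 0 of these 11 markers rose or fell, against 0.152% of all features. The part of this shift in the results for the TDH, PDC and ADH genes was not tested, and fewer cells of a type and less RNA per cell cannot be told apart in whole cultures.

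The paralogs resemble each other closely, which bears on how reads were shared out between them. The authors' positions of the 9 genes and *TDH3* matched the R64 assembly for 10 of 10 genes, each gene is a single exon, and no other listed feature overlaps any of them. The first 60 coding bases of the paralogs of equal length are shown, 5′ to 3′ on the coding strand, because these are the kind of differences by which a read is placed. Capitals mark bases that differ from the first gene of each set. For the TDH set the intervals are chrX:338271-338330 (*TDH1*, forward strand), chrX:454622-454681 (*TDH2*, reverse) and chrVII:883751-883810 (*TDH3*, reverse):
TDH1: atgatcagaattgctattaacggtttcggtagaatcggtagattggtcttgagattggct
TDH2: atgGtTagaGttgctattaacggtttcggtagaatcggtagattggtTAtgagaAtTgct
TDH3: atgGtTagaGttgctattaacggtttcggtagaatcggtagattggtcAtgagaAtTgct

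For the PDC set they are chrXII:234022-234081 (*PDC1*, reverse), chrXII:410723-410782 (*PDC5*, forward) and chrVII:652922-652981 (*PDC6*, reverse):
PDC1: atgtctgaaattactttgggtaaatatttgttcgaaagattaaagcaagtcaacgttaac
PDC5: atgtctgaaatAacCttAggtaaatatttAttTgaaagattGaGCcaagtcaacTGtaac
PDC6: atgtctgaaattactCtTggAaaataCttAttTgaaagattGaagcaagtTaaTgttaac

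For the ADH pair they are chrXV:160535-160594 (*ADH1*, reverse) and chrXIII:874278-874337 (*ADH2*, reverse):
ADH1: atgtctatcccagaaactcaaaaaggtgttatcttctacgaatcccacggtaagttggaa
ADH2: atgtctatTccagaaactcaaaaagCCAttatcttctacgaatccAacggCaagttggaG

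In these stretches *TDH2* differed from *TDH1* at 7 bases and *TDH3* at 6, *PDC5* and *PDC6* differed from *PDC1* at 10 and 9, and *ADH2* differed from *ADH1* at 7. Over the whole coding sequence *TDH2* and *TDH3* were 95.8% identical, with a longest identical run of 173 bases, and *TDH1* was 90.2% identical to *TDH2*. *ADH1* and *ADH2* were 88.8% identical and shared a run of 189 bases. *PDC1* and *PDC5* were 87.2% identical, while *PDC6* was 75% identical to *PDC1* and 73.5% to *PDC5*. The read length is not given in the sources used here, so windows of 50 and 75 bases were taken as a measure. Of the 50-base windows of each coding sequence, an exact copy lay elsewhere in the nuclear genome for 31.3% in *TDH2*, 15.7% in *TDH1*, 14% in *ADH1* and in *ADH2*, and 0.974% in *PDC1* and in *PDC5*. No such window was found in *PDC6*, *ADH3* or *ADH5*. For 75 bases the shares were 18.9% in *TDH2*, 9.84% in *TDH1*, 11.8% in *ADH1* and in *ADH2*, and 0 in the PDC genes. Allowing up to 2 mismatches at the same position of a paralog gave larger shares. They were 71.4% of 50-base and 54.9% of 75-base windows between *TDH2* and *TDH3*, and 37.1% and 28.3% between *TDH1* and *TDH2*. They were 22% and 19.5% between *ADH1* and *ADH2*, and 10.9% and 2.1% between *PDC1* and *PDC5*. The levels of *TDH1*, *TDH2* and *ADH2*, and to a lesser degree *PDC5*, therefore depend on how the authors' programs divided shared reads, which was not tested.

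**Figure D1:**
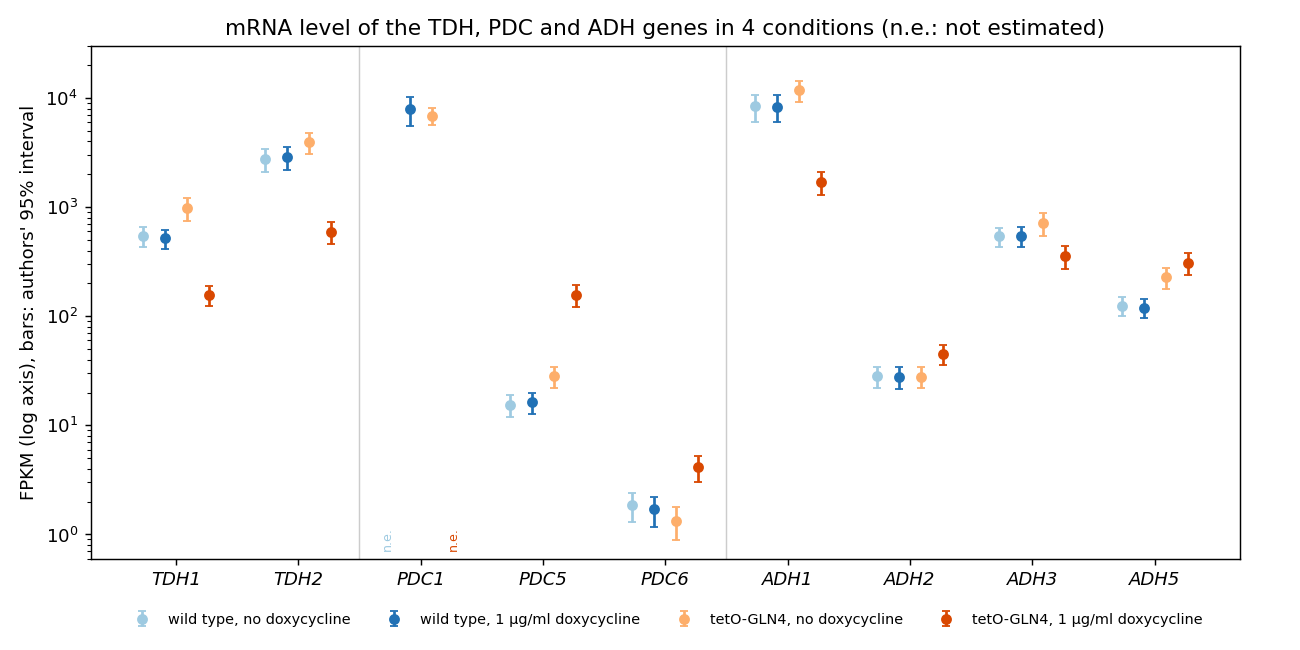
FPKM of the 9 genes (log axis) in the wild type (blue) and tetO-GLN4 (orange), without (pale) and with (dark) 1 µg/ml doxycycline; points are the authors' pooled values and bars their 95% confidence intervals. Dark orange lies apart from pale orange, below it for TDH1, TDH2, ADH1 and ADH3 and above it for PDC5, PDC6 and ADH2, while the wild-type intervals of the 8 genes with both values overlap (n.e., not estimated, for PDC1).

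In tetO-*GLN4*, both measured TDH genes, *ADH1* and *ADH3* were lower with doxycycline than without it, and the less abundant paralogs *PDC5*, *PDC6* and *ADH2* were higher. Of the 8 genes with a ratio, 4 fell (*TDH1*, *TDH2*, *ADH1*, *ADH3*), 3 rose (*PDC5*, *PDC6*, *ADH2*), and the intervals overlapped for *ADH5*. Among all 6553 features with a ratio in this strain the intervals lay apart for 31.1%, with 15.0% higher and 16.1% lower. The median log2 ratio of the 8 genes was -0.29, against 0.0071 for all features, and the single values ran from -2.80 to 2.48. In the wild type 0 of the 8 genes rose or fell, against 0.152% of 6560 features, and the log2 ratios lay between -0.12 and 0.09 with a median of -0.02.

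Both TDH genes fell by similar factors. The level of *TDH1* in the wild type was 547 FPKM (95% interval 435 to 659) without doxycycline and 516 (412 to 620) with it. In tetO-*GLN4* it was 975 (743 to 1206) without and 158 (125 to 191) with doxycycline, a 6.17-fold decrease and a log2 ratio of -2.62 (-3.08 to -2.17). The wild-type intervals overlapped, whereas those of tetO-*GLN4* lay far apart.

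*TDH2*, the more abundant of the pair, had 2733 FPKM (2086 to 3380) in the untreated wild type and 2870 (2190 to 3550) with doxycycline. In tetO-*GLN4* its level was 3933 FPKM (3056 to 4811) without and 596 (456 to 735) with doxycycline, a 6.60-fold decrease and a log2 ratio of -2.72 (-3.19 to -2.26). Fewer than 1% of features had a lower ratio in this strain (0.916% for *TDH1* and 0.794% for *TDH2*). *TDH2* exceeded *TDH1* by 4.04-fold (2.91 to 5.59) in untreated tetO-*GLN4* and by 3.77-fold (2.76 to 5.16) with doxycycline, so the balance between them differed by less than its interval. The summed level of the pair fell from 4908 to 754 FPKM in tetO-*GLN4* and was 3280 and 3386 FPKM in the wild type.

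Among the pyruvate decarboxylases, the minor paralogs rose and the major one could not be followed. *PDC1*, the main pyruvate decarboxylase of glucose-grown cells, had 7889 FPKM (5549 to 10229) in the wild type with doxycycline and 6875 (5638 to 8112) in untreated tetO-*GLN4*. The other condition of each strain was not estimated, and no change of *PDC1* can be given. *PDC1* made up 99.6% (99.5 to 99.7) of the summed FPKM of the 3 PDC genes in untreated tetO-*GLN4* and 99.8% (99.7 to 99.9) in the wild type with doxycycline.

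*PDC5*, an isozyme known to be raised when *PDC1* is lost or thiamine is scarce, had 15.4 FPKM (12 to 18.9) in the untreated wild type and 16.4 (12.8 to 20) with doxycycline. In tetO-*GLN4* its level was 28.1 FPKM (22.1 to 34.2) without and 157 (122 to 192) with doxycycline. This was a 5.57-fold increase (log2 ratio 2.48, 2.03 to 2.93), and 98.7% of features had a lower ratio. With doxycycline its level was close to that of *TDH1* in the same cultures (157 and 158 FPKM, overlapping intervals), whereas without it *TDH1* was far above *PDC5*.

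*PDC6*, a weakly expressed isozyme known to be induced when sulfur is limiting, had the lowest level of the estimated genes in every condition. Its level was 1.85 FPKM (1.29 to 2.42) and 1.70 (1.18 to 2.22) in the wild type, without and with doxycycline. In tetO-*GLN4* it was 1.34 FPKM (0.89 to 1.78) without and 4.15 (3.02 to 5.27) with doxycycline, a 3.10-fold increase and a log2 ratio of 1.63 (1.01 to 2.25). With a pseudocount of 1 on both values the log2 ratio was 1.14. The intervals of tetO-*GLN4* lay apart, but the level with doxycycline remained a small fraction of that of *PDC5*, which exceeded it 37.8-fold (26.6 to 53.8) with doxycycline and 21.0-fold (14.1 to 31.3) without, with overlapping intervals.

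The alcohol dehydrogenases moved in different directions. *ADH1*, the cytosolic enzyme that forms most ethanol, had the highest level of the estimated genes in each condition, although its interval overlapped that of *PDC1* in the wild type with doxycycline. Its level in the wild type was 8376 FPKM (6079 to 10673) without and 8300 (6029 to 10571) with doxycycline. In tetO-*GLN4* it was 11717 FPKM (9257 to 14178) without and 1688 (1294 to 2081) with doxycycline. The 6.94-fold decrease (log2 ratio -2.80, -3.25 to -2.34) had the largest size among the 8 genes, and 0.717% of features had a lower ratio.

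*ADH2*, the glucose-repressed enzyme that oxidizes ethanol, moved the other way. Its level was 28.2 FPKM (22.0 to 34.4) and 27.8 (21.6 to 33.9) in the wild type, without and with doxycycline. In tetO-*GLN4* it was 27.9 FPKM (21.8 to 34.1) without and 45.5 (35.9 to 55.0) with doxycycline, a 1.63-fold increase (log2 ratio 0.70, 0.27 to 1.14). The gap between its intervals was narrow, and 83.3% of features had a lower ratio. *ADH1* exceeded *ADH2* 420-fold (310 to 569) in untreated tetO-*GLN4* and 37.1-fold (27.1 to 50.8) with doxycycline, with intervals far apart. The wild-type values of this ratio were 297 (209 to 422) and 299 (210 to 425).

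*ADH3* encodes the mitochondrial alcohol dehydrogenase. It had 539 FPKM (430 to 649) and 546 (435 to 657) in the wild type, without and with doxycycline, and 717 (548 to 886) and 354 (272 to 436) in tetO-*GLN4*. Its 2.02-fold decrease (log2 ratio -1.02, -1.49 to -0.54) was the smallest of the 4 genes that fell.

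*ADH5*, a less studied paralog, had 125 FPKM (99.8 to 149) and 119 (95.5 to 143) in the wild type, and 228 (177 to 279) and 310 (240 to 380) in tetO-*GLN4*, without and with doxycycline. Its log2 ratio in tetO-*GLN4* was 0.44 with an interval of -0.02 to 0.90, so a difference was not established, and a change of up to 1.87-fold lies within that interval.

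**Figure D2:**
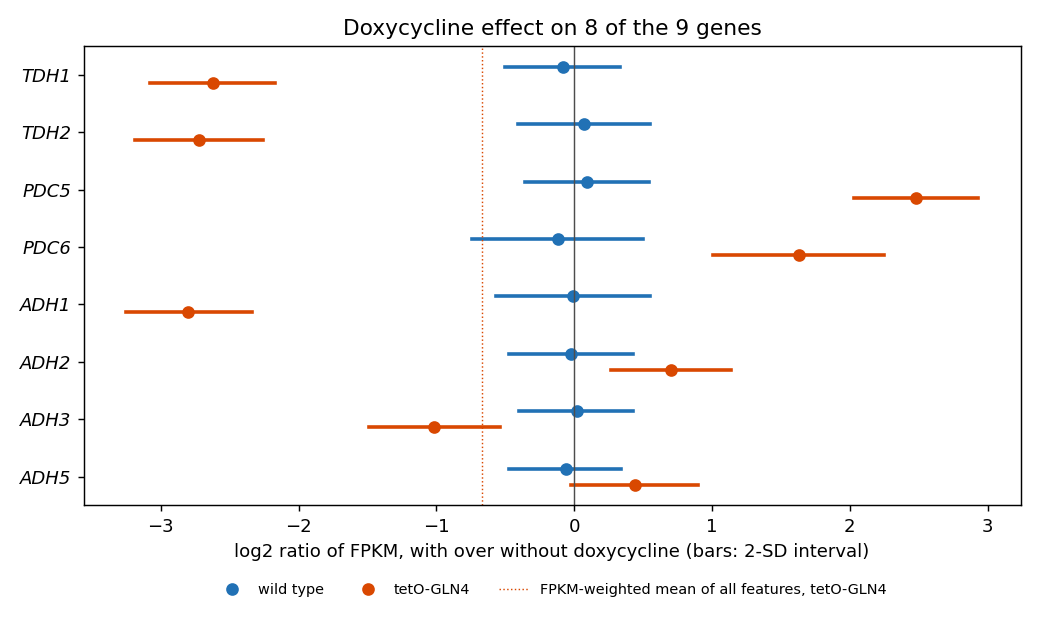
The log2 ratio of FPKM with over without doxycycline for 8 genes, in the wild type (blue) and tetO-GLN4 (orange); bars are 2-SD intervals and the dotted line marks the FPKM-weighted mean of all features in tetO-GLN4, -0.67. All wild-type bars cross 0, and the orange values run from -2.80 (ADH1) to 2.48 (PDC5).

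The size of these changes depends on the scale. The summed FPKM of all estimated features went from 2620000 to 1700000 in tetO-*GLN4*, against 2440000 in both wild-type conditions. The FPKM-weighted mean log2 ratio of tetO-*GLN4* was -0.67, while the median was 0.0071. Relative to the weighted mean, the log2 ratios became -2.12 for *ADH1*, -2.05 for *TDH2*, -1.95 for *TDH1* and -0.34 for *ADH3*, whose 2-SD interval then held 0. They became 3.15 for *PDC5*, 2.31 for *PDC6*, 1.38 for *ADH2* and 1.12 for *ADH5*, whose interval no longer held 0. On this scale 4 of the 8 genes were higher and 3 lower, in place of 3 and 4. Among all features 3734 were then higher and 414 lower, in place of 1429 and 1511 by the same 2-SD rule without centring.

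The effect of doxycycline was then compared between the strains, to take account of the drug's effect in wild-type cells. Such a comparison also holds whatever else changed only in treated tetO-*GLN4*. This includes the slower growth that the paper reports and the fall of the alpha-cell markers, which cannot be told apart here from *GLN4* shut-off. The difference of the log2 ratios (tetO-*GLN4* minus wild type) had a 2-SD interval without 0 for 7 of the 8 genes, against 32.8% of 6538 features. It was -2.78 for *ADH1* (-3.50 to -2.06), -2.79 for *TDH2* (-3.46 to -2.12) and -2.54 for *TDH1* (-3.16 to -1.92). It was 2.39 for *PDC5* (1.75 to 3.03) and 1.76 for *PDC6* (0.88 to 2.63). For *ADH3* and *ADH2* it was -1.03 (-1.67 to -0.40) and 0.73 (0.10 to 1.36). For *ADH5* it was 0.51, with an interval of -0.11 to 1.12. With each strain centred on its weighted mean, the interval for *ADH3* held 0 (difference -0.37) and that for *ADH5* did not (1.17).

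The order of levels was compressed in tetO-*GLN4* with doxycycline. Within the wild type the order of the 8 genes, from high to low, was *ADH1*, *TDH2*, *TDH1* with *ADH3*, *ADH5*, *ADH2*, *PDC5* and *PDC6*, and only the neighbours *TDH1* and *ADH3* had overlapping intervals (in the reverse order with doxycycline). With doxycycline *PDC1* was estimated in this strain and stood beside *ADH1* with overlapping intervals. Untreated tetO-*GLN4* had the same upper order, with *PDC1* between *ADH1* and *TDH2*, and *PDC5* and *ADH2* overlapped at 28.1 and 27.9 FPKM. With doxycycline the order became *ADH1*, *TDH2*, *ADH3*, *ADH5*, *TDH1*, *PDC5*, *ADH2* and *PDC6*, in which *ADH3* overlapped *ADH5* and *TDH1* overlapped *PDC5*.

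Within the ADH genes, *ADH1* gave way to its paralogs as a share of the summed FPKM. *ADH1* made up 92.4% (90.1 to 94.6) and 92.3% (90 to 94.6) of the sum in the wild type, without and with doxycycline, and 92.3% (90.4 to 94.3) in untreated tetO-*GLN4*. With doxycycline its share in tetO-*GLN4* was 70.4% (64.6 to 76.2). The share of *ADH3* went from 5.65% (3.99 to 7.32) to 14.8% (11.0 to 18.6), although its own level fell. The share of *ADH5* went from 1.80% (1.27 to 2.32) to 12.9% (9.58 to 16.3), and that of *ADH2* from 0.220% (0.155 to 0.285) to 1.90% (1.39 to 2.40). The sum of the 4 genes fell from 12691 to 2397 FPKM in tetO-*GLN4* and was 9068 and 8993 FPKM in the wild type.

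**Figure D3:**
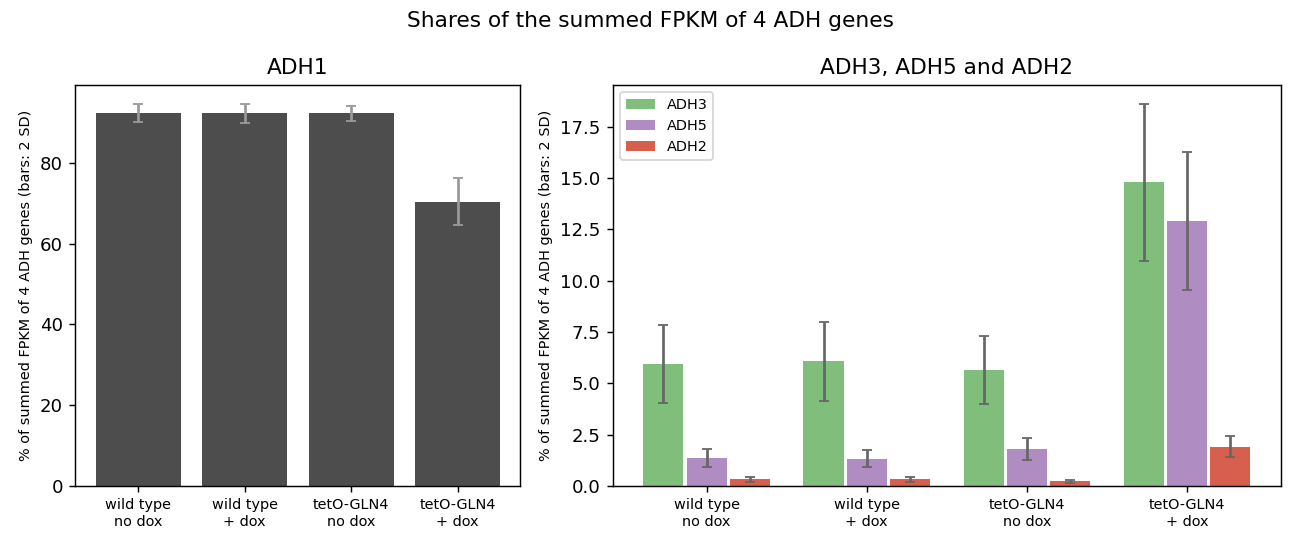
Share of the summed FPKM of ADH1, ADH2, ADH3 and ADH5 taken by ADH1 (left) and by the other genes (right) in the 4 conditions (dox, doxycycline; 0 or 1 µg/ml); bars start at 0 and error bars are 2 SDs. ADH1 stood at about 92% in 3 conditions and at 70.4% in tetO-GLN4 with doxycycline, where ADH3, ADH5 and ADH2 reached 14.8%, 12.9% and 1.90%.

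Most other genes of glycolysis fell as well. Of 14 listed glycolytic genes with a ratio, 11 fell in tetO-*GLN4*, 0 rose and the intervals of 3 overlapped, and *TDH3*, also in this list, had no estimate. For this and the following lists the shares over all features were, as above, 16.1% lower and 15.0% higher. Their median log2 ratio was -1.22, or -0.54 relative to the weighted mean. The lowest ratios in the list were those of *ENO2*, the main enolase of glucose-grown cells, from 7212 to 1447 FPKM (log2 ratio -2.32), and *HXK2*, the main hexokinase on glucose, from 1651 to 337 FPKM (-2.29). As point values the ratios of *TDH1*, *TDH2* and *ADH1* were lower than any in this list. Their 2-SD intervals overlapped those of *ENO2* (SD 0.23) and *HXK2* (SD 0.24), so an order among these genes was not established. In the wild type 0 of the 14 genes rose or fell, with a median of -0.0034.

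Related dehydrogenases and decarboxylases moved in both directions. Of 8 genes, 4 rose and 2 fell in tetO-*GLN4*, with a median log2 ratio of 0.61. *ARO10*, a decarboxylase of the Ehrlich pathway with sequence similarity to the PDC enzymes, rose from 13.7 to 114 FPKM (log2 ratio 3.06), and *XYL2*, a xylitol dehydrogenase, rose from 10 to 24.2 FPKM (1.27). *BDH1*, butanediol dehydrogenase, fell from 313 to 122 FPKM (-1.36), and *ADH4*, an alcohol dehydrogenase unrelated in sequence to the others, fell from 105 to 63.5 FPKM (-0.73). With *ADH4*, *ADH6*, *ADH7* and *SFA1* added to the sum, a choice made after seeing the data, the share of *ADH1* was 88.4% in untreated tetO-*GLN4* and 53.5% with doxycycline.

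Downstream of acetaldehyde, 3 of 7 genes of the route to acetate and acetyl-CoA rose and 0 fell, with a median log2 ratio of 0.35. *ACS1*, the glucose-repressed acetyl-CoA synthetase, rose from 8.88 to 19.0 FPKM (1.10), and *ALD2*, an aldehyde dehydrogenase, rose from 13.8 to 28.2 FPKM (1.04).

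Among 14 regulators known to act on these genes, 5 fell and 3 rose. The median log2 ratio was -0.03, which turns to 0.65 relative to the weighted mean. *TYE7*, a basic helix-loop-helix activator of glycolytic genes, fell from 415 to 48.8 FPKM (-3.09), and *HXK2*, which also takes part in glucose repression, is given above. *THI2*, an activator of thiamine genes, rose from 7.41 to 20.1 FPKM (1.44), and *CAT8*, an activator of gluconeogenic genes, rose from 3.71 to 6.95 FPKM (0.90). Genes repressed by glucose as *ADH2* is rose in 10 of 16 cases and fell in 0, with a median of 0.82. *SFC1*, a mitochondrial succinate-fumarate carrier, rose from 0.971 to 11.2 FPKM (3.53), and *MLS1*, malate synthase, rose from 2.23 to 11.8 FPKM (2.41). The ratio of *ADH2* (0.70) lay below the median of that list.

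Further lists were chosen for *PDC5* and *PDC6*. Of 11 thiamine-responsive genes, 3 rose, 1 fell and 7 overlapped, a number of calls near the 31.1% of all features, with a median log2 ratio of 0.47. *THI4*, an enzyme of thiazole synthesis, rose from 7.42 to 25.1 FPKM (1.76), as did *THI2* (above), whereas *PHO3*, an acid phosphatase repressed by thiamine, fell from 151 to 20.4 FPKM (-2.89). Of 8 sulfur assimilation genes, 4 rose and 2 fell, with a median of 0.54. *MET16*, PAPS reductase, rose from 270 to 679 FPKM (1.33) and *MET10*, a subunit of sulfite reductase, rose from 193 to 359 FPKM (0.89). *MET3*, ATP sulfurylase, fell from 534 to 102 FPKM (-2.39) and *MET14*, APS kinase, fell from 546 to 190 FPKM (-1.52). In the wild type 0 genes of the lists described in this and the preceding paragraphs rose or fell.

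**Figure D4:**
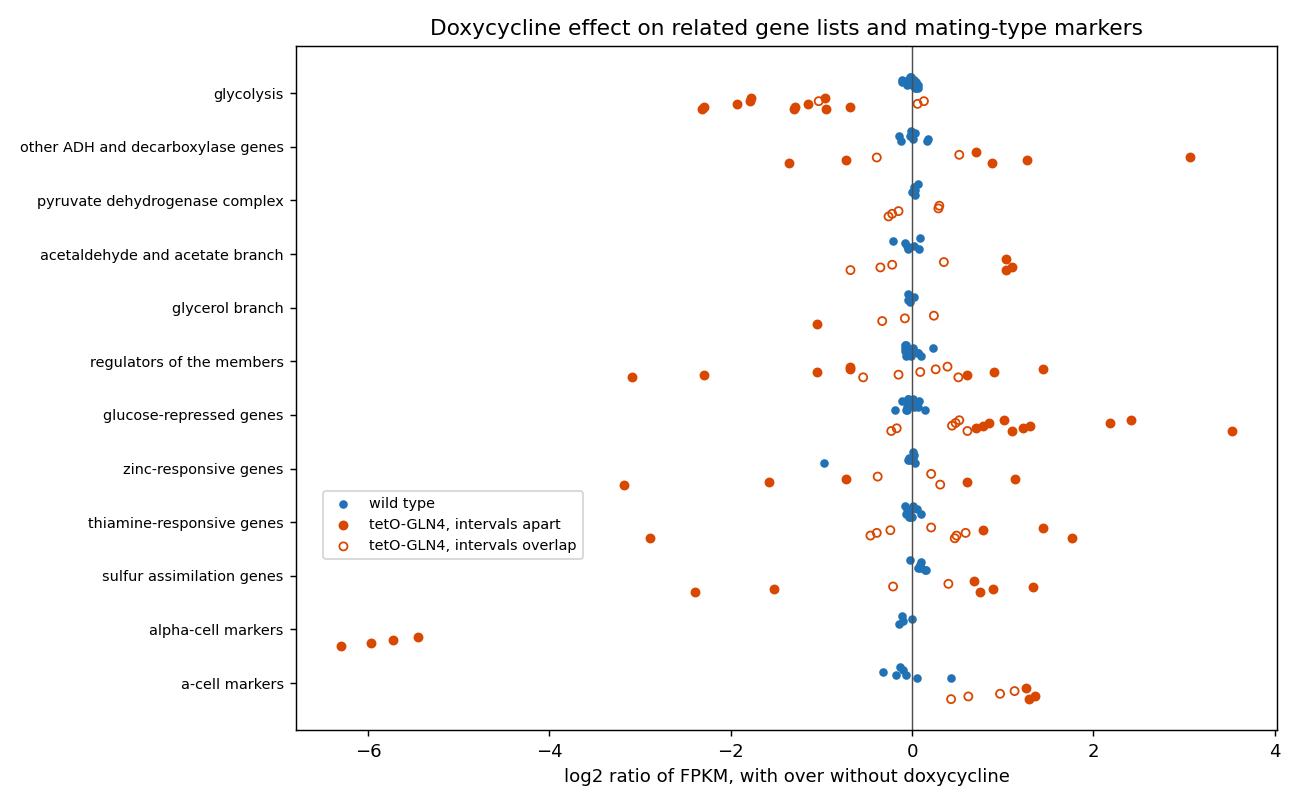
The log2 ratio of FPKM with over without doxycycline for every gene of 12 lists, in the wild type (blue) and tetO-GLN4 (orange; filled where the 95% intervals lay apart, open where they overlapped), with points offset vertically for visibility. Glycolytic genes lie mostly left of 0 and glucose-repressed genes mostly right of it, and the alpha-cell markers lie between -6.30 and -5.45.

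The gene whose pattern over the 4 conditions was nearest to that of *ADH1* among 6348 features with at least 1 FPKM in all conditions was *SFG1*, at a Euclidean distance of 0.0174 in log2 FPKM, each gene centred on its own mean within a strain. *TOS4* (0.0339) and *PHO3* (0.068) followed. Their tetO-*GLN4* ratios were -2.78, -2.77 and -2.89, at levels far below that of *ADH1* (232, 62.4 and 151 FPKM untreated). With this centring the distance depends only on the log2 ratio of each strain, taken from 4 pooled values. The wild-type ratios were near 0, so the likeness is mainly a similar ratio in tetO-*GLN4*.

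The coding sequences of the members were read for properties that the choice of genes did not use. Glutamine codons (CAA and CAG) made up 1.72% of codons in *ADH2*, 1.81% in *TDH2*, 2.11% in *TDH1*, 2.59% in *ADH1*, 2.67% in *ADH3* and 2.85% in *ADH5*, against a median of 3.69% over 5988 nuclear coding genes. They made up 3.55% in *PDC5*, 3.91% in *PDC1* and 4.09% in *PDC6*. Among the genes that rose, *ADH2* thus had the lowest share of the 9 genes and *PDC6* the highest, and the 4 genes that fell lay between 1.81% and 2.67%. The part of codon content in the changes was not tested. *PDC6* had 9 CAG codons among its 23 glutamine codons, *ADH3* had 1, and the other 7 genes used CAA alone. *PDC6* held 6 methionine and cysteine codons, start codon included, against 17 in *PDC1* and 18 in *PDC5*, which are of the same length. Its share of 1.07% was undercut by 2.3% of the genes, whereas the shares of the other members ran from 2.71% to 4.31% with a median of all genes of 3.37%.

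The 500 bases before each start codon were searched for short motifs on both strands, because *TDH1*, *TDH2*, *ADH1* and *ADH3* fell together. CACGTG, the E box bound by basic helix-loop-helix factors such as Cbf1, Pho4 and Tye7, was present before 3 of the 9 genes and before 6.23% of 6002 coding genes. It lay 256 bases before the start of *TDH1*, 401 before *TDH2* and 363 before *ADH3*, all genes that fell, and was not found in this window for *ADH1*. The matches are shown with 12 flanking bases on each side, on the coding strand and with the motif in capitals, at chrX:338003-338032 (*TDH1*), chrX:455065-455094 (*TDH2*) and chrXIII:434413-434442 (*ADH3*):
TDH1: tgcgacggtatcCACGTGcagaacaacata
TDH2: tcttttctttacCACGTGatctgcggcatt
ADH3: gttactacctatCACGTGtcgcatcactcg

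TGACTC, the core of the Gcn4 site, was present before 2 of the 9 genes and before 12.6% of the 6002. Both matches, in a gene that fell and in one whose intervals overlapped, are on the opposite strand and read GAGTCA here, at chrXIII:434582-434611 (*ADH3*) and chrII:533524-533553 (*ADH5*):
ADH3: tccgggccacagGAGTCAaaggcttttcgc
ADH5: tcgcggaaggatGAGTCAaaaagcatgtga

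CTTCC, the core of the Gcr1 site, was present before 5 of the 9 genes and before 66.1% of the 6002. It occurred at 5 places before *ADH1*, at 2 each before *TDH1*, *TDH2* and *ADH5*, at 1 before *ADH3* and at none before the PDC genes or *ADH2*. A match of letters is a description of the sequence and does not show that a factor binds there, and no match refers to this window alone. The search was prompted by the fall of *TDH1*, *TDH2*, *ADH1* and *ADH3* in these same data. The part of these motifs in that fall was not tested.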

How the data were processed

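RNA from 12 cultures (2 strains, 0 or 1 µg/ml doxycycline, 3 cultures each) had been prepared as stranded mRNA libraries. According to the submitters' processing notes and the paper's methods, reads were mapped with TopHat 1.4.0 and compared with Cuffdiff, on the sacCer3 (R64) genome; the versions of Cufflinks and Cuffdiff, the read length and the treatment of reads with several matches are not given in the sources used here. The authors deposited FPKM values (normalized for library size and gene length) that pool the cultures of a condition, each with a 95% confidence interval, in a separate table for each strain. Their tables of fold changes, p-values and q-values for the same comparisons were not used. Depth is therefore unknown, and the confidence intervals are the only measure of precision used here. By the authors' own test, the paper reports a larger share of genes as changed in tetO-*GLN4* than the 31.1% called here. For the wild type it reports no gene as significantly changed, whereas the interval rule called 10 of 6560 features.

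Values with a status other than OK were treated as missing. The log2 ratio was computed without a pseudocount for all genes with an FPKM above 0 in both conditions (6560 in the wild type, 6553 in tetO-*GLN4*), with an SD from the distance between FPKM and upper bound (2 SDs). Genes were called where the intervals lay apart. The calculation was tested on simulated data. The intervals treat the conditions as independent estimates. The members and gene lists were chosen with earlier results of these data known. Named genes are the 9 members, *TDH3*, from each list up to 2 called genes in each direction with the largest log2 ratios in tetO-*GLN4*, and the 3 features nearest to the member that changed most. Sequences come from RefSeq, assembly R64. Alternatives were a pseudocount (1 or 0.1), a minimum FPKM of 1, a 2-fold rule, a 2-SD interval of the ratio, and centring on the median or the FPKM-weighted mean. Python 3.11.15, numpy 2.4.6, pandas 2.3.3 and matplotlib 3.10.9 were used.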

Additional observations from a re-analysis of the deposited data

Results flagged for a closer look

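For 7 genes the effect of doxycycline differed between the strains, judged by a 2-SD interval of the difference of log2 ratios (tetO-*GLN4* minus wild type) that did not hold 0. The differences were -2.79 for *TDH2*, -2.78 for *ADH1*, -2.54 for *TDH1* and -1.03 for *ADH3* on the lower side, and 2.39 for *PDC5*, 1.76 for *PDC6* and 0.73 for *ADH2* on the upper side. The intervals come from the authors' pooled estimates and not from values per culture, and 32.8% of all features met the same criterion.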

How the results depend on the processing

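Of 126 alternative values, 101 kept their direction and their side of the threshold, or their value within the error. The 101 include values whose call could not change under the setting, as described next. Centring on the median changed no call among the 8 genes. Pseudocounts of 1 and 0.1 could not change a call within a strain, because that call compares the deposited bounds. An FPKM minimum of 1 could not either, as all 8 genes lay above it in every condition. For the difference between strains, which was recomputed, a pseudocount of 1 kept the 7 calls. Centring on the FPKM-weighted mean, which adds 0.67 to each log2 ratio in tetO-*GLN4*, ended the call of *ADH3* (-0.34) and made one of *ADH5* (1.12), as it did for the difference between strains (-0.37 and 1.17). It also turned the median of the pyruvate dehydrogenase list to 0.53, of the glycerol list to 0.47, of the regulators to 0.65 and of the zinc-responsive genes to 0.59. In tetO-*GLN4* the 2036 called features became 1349 with a 2-fold rule and 4148 with the 2-SD interval on the weighted-mean scale, of which 3734 were higher and 414 lower, against 1429 and 1511 with the same rule uncentred and 984 and 1052 by intervals that lay apart. The 2-fold rule kept 6 members, without *ADH2*. In the wild type the 10 called features became 24 with the 2-SD interval of the ratio, 74 with the 2-fold rule and 23 on the weighted-mean scale, with 0 members in each. No paired analysis was possible because the deposited values are pooled over the cultures of a condition, and for the same reason no culture could be left out. Uncentred changes smaller than about 2 SDs of a ratio (median SD 0.22) are not called by the interval rules used here. Intervals that lie apart generally need a larger change. In tetO-*GLN4* that rule called 2036 features, against 2940 by the 2-SD interval of the ratio. These limits belong to the rules and not to the cultures, as the paper's own test reports some smaller changes as significant.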

Other observations

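In tetO-*GLN4*, 0 of 5 genes of the pyruvate dehydrogenase complex, which brings pyruvate into the TCA cycle, rose or fell, and their log2 ratios lay between -0.26 and 0.30. Of 4 glycerol genes, 1 fell, *GPD1* (glycerol-3-phosphate dehydrogenase), from 271 to 131 FPKM (log2 ratio -1.05). *GPD1* overlaps YDL023C, and its value is uncertain for that reason.

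Zinc-responsive genes were examined because alcohol dehydrogenases bind zinc. In tetO-*GLN4* 2 of 8 rose and 3 fell, against 15.0% and 16.1% of all features. *ZRT1*, the high-affinity zinc transporter, fell from 353 to 39.1 FPKM (log2 ratio -3.18), and it also fell in the wild type, from 131 to 66.9 FPKM (-0.97), the single listed gene that did so there. *MCD4* fell from 38.9 to 13.0 FPKM (-1.58), while *ZPS1* rose from 25.4 to 55.6 FPKM (1.13) and *ZAP1*, the zinc-responsive activator, rose from 19.5 to 29.6 FPKM (0.60).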
